A study of Arabidopsis thaliana with 24 samples.

Results

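The effect of water limitation on the transcripts of Arabidopsis rosettes was compared between night and day. For each probe set, the night change was the mean of the water-limited minus well-watered changes at midnight and pre-dawn, and the day change was the mean of those at midday and late day. The quantity of interest was the night change minus the day change, taken over all 24 of the series' 24 Affymetrix arrays. It was tested for the 11926 of 22746 non-control probe sets with a log2 level of 5 or more in at least 3 arrays. Whole rosettes of wild-type Columbia-0 were 32 days old when sampled and grew under a 12 h photoperiod. Water-limited plants had been watered for 28 days and then went 4 days without water, whereas well-watered plants were watered throughout. The 4 sampling times were 12 h, 18 h, 0 h and 6 h on the clock, called midday, late day, midnight and pre-dawn here, with 3 arrays per regime and time that the series describes as biological replicates. No transgene or mutation is involved. The labels do not say how many rosettes went into an array or what the water status of the soil or leaves was.

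A plant losing soil water closes its stomata by day, when light drives photosynthesis, and at night lives on starch laid down during the day. Transcript levels of a large share of plant genes follow the clock and the light cycle, so a response to drying soil can be strong at 1 time of day and weak at another. Pathways known to respond to drought or to its consequences for carbon and nutrients include abscisic acid signalling, anthocyanin synthesis, sugar transport, nitrogen and iron uptake and growth by cell wall loosening.

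The number of arrays, 3 per group, limits the precision: the median standard error was 0.143 log2 for the night and for the day change and 0.202 for their difference. Array medians lay between 4.66 and 4.86 log2. Of the 12 water-limited arrays, 2 stood apart from their replicates. Replicate 2 of water-limited late day differed from the other members of its group with an SD of 0.603 and 0.73 log2 over probe sets, against 0.409 between those others. Replicate 2 of water-limited pre-dawn differed from its group by 0.467 and 0.449, against 0.265 between replicates 1 and 3. The water-limited midnight arrays differed from each other by 0.453, 0.482 and 0.456, a similar spread with no single array apart. Over the 1544 probe sets called for the night change, that pre-dawn array was the one of its 3 closest to the well-watered pre-dawn mean for 1318 probe sets (85.4%), against 8.55% for replicate 1 and 6.09% for replicate 3; these probe sets were chosen with that array included. At midnight, against the well-watered midnight mean, these shares were 12%, 52.7% and 35.3% for water-limited replicates 1, 2 and 3. The calls below used all 24 arrays. Those that rest on replicate 2 of water-limited late day or pre-dawn are given with and without that array. Of 12 green-leaf markers, 1 (RCA, rubisco activase) was named on the array and tested, and it did not pass the test at night or by day (night change -0.16, day change 0.01). A change between regimes cannot show which tissue was sampled, so the tissue label was not checked. In whole rosettes, fewer cells of a type and less RNA per cell cannot be told apart.

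Water limitation changed many transcripts at night and few by day, yet the test of the difference passed for few. The night change passed limma's moderated test (Benjamini-Hochberg adjusted p of 0.05 over all 11926 probe sets, the threshold used throughout) for 1544 probe sets (12.9% of those tested), of which 777 rose (6.52%) and 767 fell (6.43%). The day change passed for 19 (0.159%), of which 1 rose and 18 fell. The night-minus-day difference itself passed for 10 (0.0839%), of which 3 were higher (0.0252%) and 7 lower (0.0587%), meaning that at night water limitation moved them up or down relative to its effect by day. The remaining 1534 of the 1544 night calls did not pass the test of the difference, and a night call without a day call is therefore not evidence of a difference between night and day. All 10 calls for the difference were night calls and none was a day call. At an unadjusted p of 0.05, 1534 probe sets passed for the difference (629 higher and 905 lower), 3401 for the night change and 1070 for the day change, where 596 would pass in each if no probe set differed. Of the 19 day calls, 9 were also night calls, and all 9 had the same direction.

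**Figure D1:**
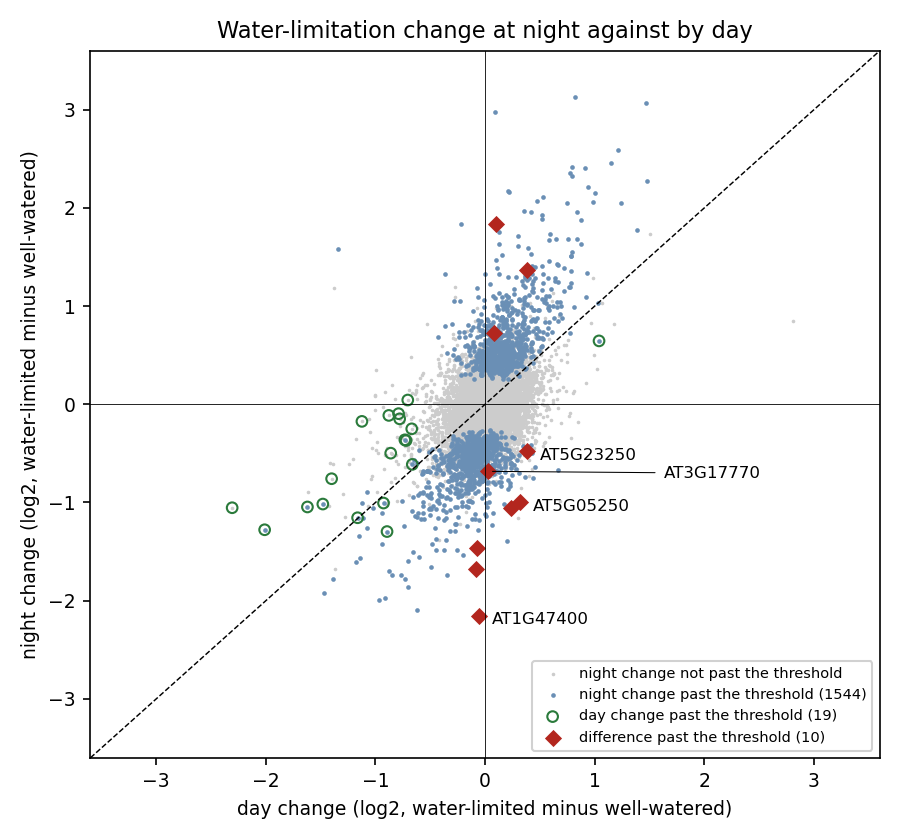
Each point is a probe set, with the day change of its log2 level (water-limited minus well-watered) on the horizontal axis and the night change on the vertical axis. The dashed line marks equal changes. Most of the 1544 night-called probe sets lie further from 0 on the vertical axis than on the horizontal one, and the 10 red diamonds are those called for the difference, 4 of them with a gene name.

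The array left in or out at pre-dawn moved this count more than any other. Without water-limited pre-dawn replicate 2, the difference passed for 210 probe sets (1.76%), 107 higher (0.897%) and 103 lower (0.864%), which included all 10 of the calls with 24 arrays, and the night change passed for 2248 (18.8%). That array lay closest to the well-watered mean for 85.4% of the 1544 night-called probe sets, so leaving it out tends to enlarge their pre-dawn changes. Without water-limited late-day replicate 2 the difference passed for 24 (0.201%) and the night change for 1872 (15.7%). Without both arrays, a setting chosen after the data were seen, the difference passed for 307 (2.57%) and the night change for 2682 (22.5%). Over the 24 settings that left out 1 array each, the count for the difference ran between 3 and 210 and that for the night change between 692 and 2248. The day change passed for between 5 and 25. The order of many night calls and few day calls held in each of these 24 settings.

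Night-called probe sets were read at the day times, which share no arrays with the night times, as a description. The 777 that rose at night, by a median of 0.59 log2, had a median day change of 0.17, and 84.9% of them had a day change above 0, against 56.8% of all probe sets tested. The 767 that fell at night, by a median of 0.59 log2 downward (-0.59), had a median day change of -0.11, and 74.1% had a day change below 0, against 43.2% of all probe sets. The day changes thus ran mostly in the same direction as the night changes and were smaller. Midday values were the smaller of the day values, with medians of 0.14 at midday and 0.21 at late day for the probe sets that rose at night. For those that fell at night the medians were -0.06 at midday and -0.18 at late day. Reading the other way, the 18 probe sets that fell by day had a median night change of -0.55, and 17 of them had a night change below 0. The size of a called change is inflated by having been chosen for passing, and the values at the other times are not.

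Probe sets called at 1 night time mostly had changes in the same direction at the other. Pre-dawn gave 864 calls (7.24%; 489 higher, 4.1%, and 375 lower, 3.14%), midnight 46 (0.386%; 13 higher, 0.109%, and 33 lower, 0.277%), late day 25 (0.21%) and midday 0 by limma, with 593 at an unadjusted p of 0.05 at midday. The 489 that rose at pre-dawn had medians of 0.14 at midday, 0.16 at late day and 0.37 at midnight, and 87.1% were above 0 at midnight. The 375 that fell at pre-dawn had medians of -0.06 at midday, -0.10 at late day and -0.39 at midnight, and 92.8% were below 0 at midnight. All 13 that rose at midnight were above 0 at pre-dawn (median 1.03), and all 33 that fell at midnight were below 0 at pre-dawn (median -0.69). The change at pre-dawn minus that at midnight passed the test for 0 probe sets by limma (709 at an unadjusted p of 0.05). Without water-limited pre-dawn replicate 2 it passed for 44, so the count with 24 arrays does not show that the changes at both night times were alike. The change at late day minus that at midday passed for 1 probe set (0.00839%), assigned to AT5G05140.

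**Figure D2:**
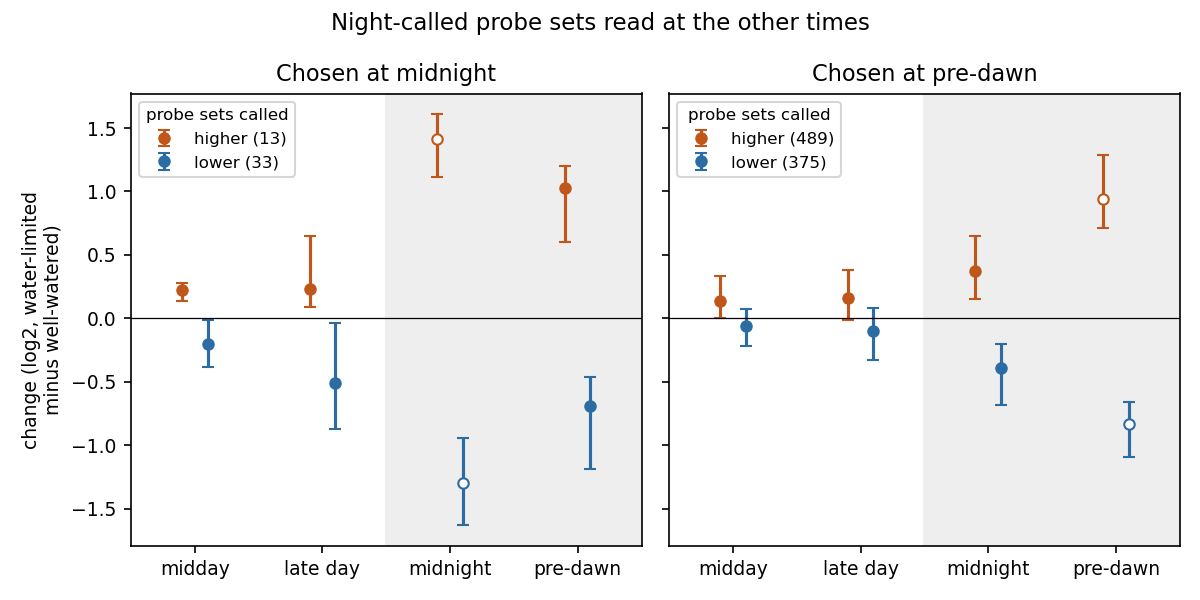
Median change in log2 level (water-limited minus well-watered, points) with lower and upper quartiles (bars) of probe sets called at midnight (left) or at pre-dawn (right), by time of day, with night shaded. Open points mark the time at which the probe sets were chosen. Filled points at the other night time are larger in size than those at midday and late day, and all lie on the same side of 0 as the open ones.

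AT1G47400 encodes IMA1, a short peptide that promotes the iron-deficiency response and is itself induced when iron is short. It had the largest difference in size among the 10 calls. At midnight its log2 level was 4.13, 5.05 and 5.68 in the 3 water-limited arrays, against 7.60, 8.25 and 7.79 in the well-watered arrays, a 7.59-fold lower level. At pre-dawn it was 6.36, 6.98 and 6.47 in water-limited arrays, against 7.84, 7.78 and 8.34 in well-watered arrays, 2.60-fold lower. The regimes did not overlap at either night time. By day they did: at midday the levels were 7.62, 8.50 and 8.13 in water-limited plants, against 7.86, 7.98 and 8.57 in well-watered plants, and at late day 7.63, 7.53 and 6.78, against 7.36, 7.63 and 7.08. The night change was -2.15 and the day change -0.05, and the difference was -2.10 (SE 0.33, 95% interval -2.79 to -1.41, limma adjusted p 0.0117). In well-watered plants the transcript stayed nearly level between night and day (0.18), whereas in water-limited plants it was 1.92 log2 lower at night than by day (-1.92).

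AT5G05250, for which no function is given here, had the smallest p and moved in opposite directions. At midnight its log2 level was 5.57, 5.67 and 5.91 in water-limited arrays, against 6.92, 7.08 and 7.12 in well-watered arrays. At pre-dawn it was 7.11, 7.08 and 6.93, against 7.61, 7.79 and 7.74. Water-limited arrays lay below the well-watered ones at both night times and above them at late day (6.55, 6.96 and 6.90, against 6.39, 6.10 and 6.49), and the regimes overlapped at midday (7.38, 7.27 and 7.83, against 6.85, 7.62 and 7.52). The night change was -1.0 and passed the test, whereas the day change of 0.32 did not (adjusted p 0.473). The difference was -1.32 (SE 0.19, 95% interval -1.71 to -0.93, limma adjusted p 0.00815). The gene was lower at night than by day in water-limited plants (-0.77) and higher at night than by day in well-watered plants (0.55).

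AT3G17770, known as a dihydroxyacetone kinase, fell at night with little spread between arrays. At midnight its level was 6.31, 6.06 and 6.03 log2 in water-limited arrays, against 6.92, 6.86 and 7.05 in well-watered arrays, and at pre-dawn 6.09, 5.93 and 5.98, against 6.47, 6.52 and 6.68. The regimes did not overlap at either night time and overlapped at midday and at late day. The difference was -0.71 (SE 0.13, limma adjusted p 0.0263), from a night change of -0.68 and a day change of 0.03.

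AT5G23250 encodes an alpha subunit of succinyl-CoA ligase, an enzyme of the tricarboxylic acid cycle in mitochondria. Its regimes did not overlap at any of the 4 times, and the order turned round. At midnight the levels were 6.91, 6.97 and 6.98 log2 in water-limited arrays, against 7.60, 7.56 and 7.19 in well-watered arrays, and at pre-dawn 6.63, 7.18 and 7.02, against 7.58, 7.31 and 7.33. At midday they were 7.29, 7.49 and 7.44 in water-limited arrays, against 6.86, 7.25 and 7.15 in well-watered arrays, and at late day 7.55, 7.69 and 7.40, against 7.29, 6.84 and 7.17. The water-limited arrays thus lay lower at both night times and higher at both day times. The change passed the test at no single time. The limma adjusted p was 0.168 at midnight, 0.0825 at pre-dawn, 0.996 at midday and 0.362 at late day. The night change of -0.48 passed the test, the day change of 0.38 did not (adjusted p 0.253), and the difference was -0.86 (SE 0.16, limma adjusted p 0.0357).

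**Figure D3:**
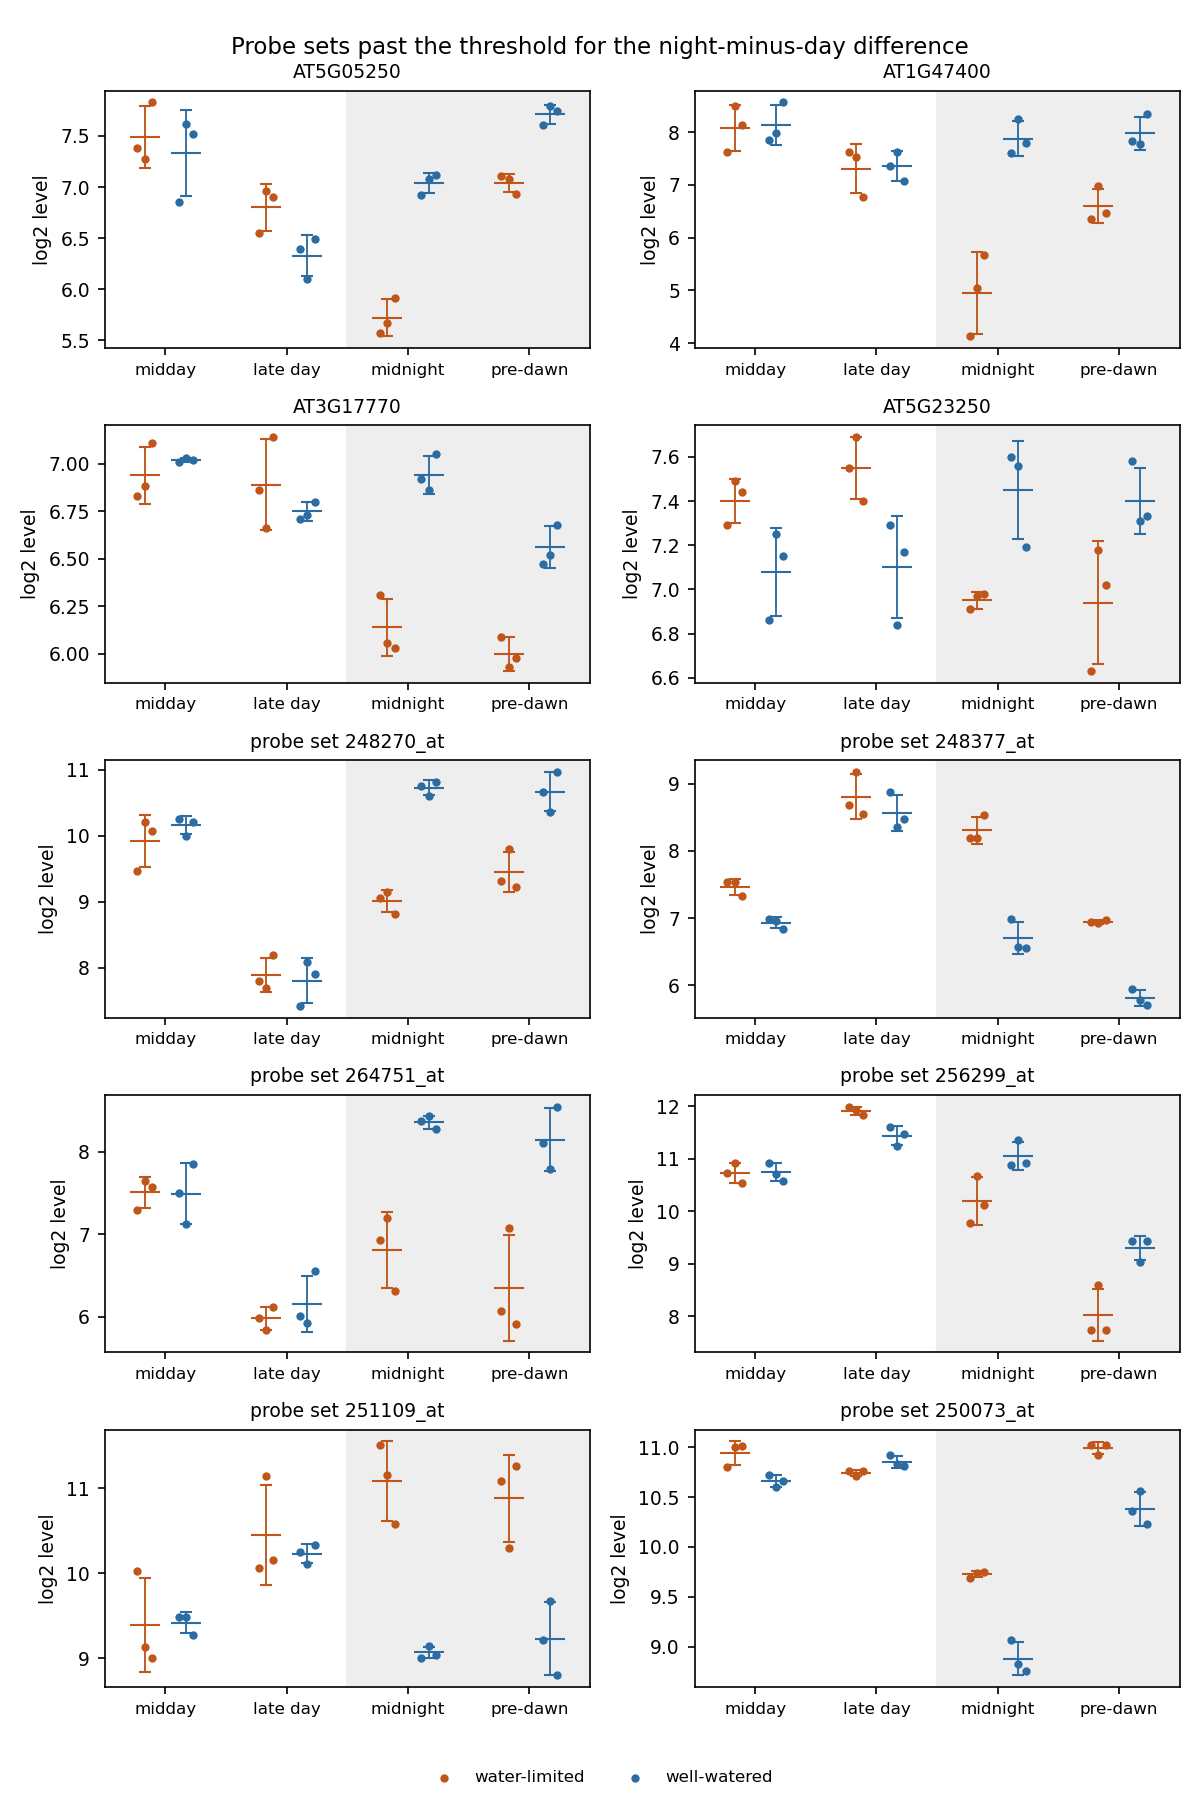
Log2 level of the 10 probe sets called for the night-minus-day difference, by time of day, with water-limited arrays left of well-watered ones and night shaded. Points are arrays, 3 per regime and time, and bars are the mean and SD. At midnight and pre-dawn the regimes do not overlap in any panel, while at midday and late day most panels overlap. The probe sets were chosen for this difference, so the pattern follows from the choice. The share of all probe sets without overlap was not counted.

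The other 6 calls had no gene name in the annotation used here and are given by probe set. Probe set 248270_at had log2 levels of 9.05, 9.15 and 8.82 at midnight in water-limited arrays, against 10.75, 10.61 and 10.82 in well-watered arrays, and its difference was -1.39 (limma adjusted p 0.0117). Probe set 264751_at was lower at night by a similar margin (night change -1.67, day change -0.08, difference -1.59). Both were well separated at night and overlapped at midday and late day. Probe set 256299_at had 11.98, 11.93 and 11.83 log2 at late day in water-limited arrays, against 11.61, 11.25 and 11.47 in well-watered arrays, and a difference of -1.29. Its water-limited arrays lay above the well-watered ones at late day and below them at both night times. The 3 probe sets with a higher night change were 251109_at (difference 1.73), 248377_at (0.99) and 250073_at (0.64). At midnight 251109_at had 11.51, 11.16 and 10.58 log2 in water-limited arrays, against 9.01, 9.15 and 9.04 in well-watered arrays, 4.05-fold higher. Its water-limited plants were higher at night than by day (1.06) and its well-watered plants lower at night than by day (-0.67). At the threshold, AT5G23250 with an adjusted p of 0.0357 was the last probe set inside, and AT1G74840, with a difference of 0.72 and an adjusted p of 0.0598, was the nearest named gene outside.

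AT1G47400, AT5G05250 and 248270_at passed the test for the difference without any 1 of the 24 arrays. All 3 lost it with pre-dawn alone as the night, at -1.33 (adjusted p 0.128), -0.99 (0.0638) and -1.14 (0.0645), and with midday alone as the day, at -2.09, -1.16 and -1.23 (0.131 each). With midnight alone as the night all 3 passed, at -2.87, -1.64 and -1.64. The calls of 248377_at, 264751_at and 256299_at were lost in 5, 8 and 8 of these 24 settings, and those of 250073_at, AT3G17770, AT5G23250 and 251109_at in 10, 13, 14 and 14. None of the 10 changed direction. Over all alternatives run, AT5G23250 lay between -0.93 and -0.78 and AT3G17770 between -0.84 and -0.59.

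Many more probe sets differed between night and day than changed that difference under water limitation. Night differed from day for 4717 probe sets (39.6%) within water-limited plants and for 4828 (40.5%) within well-watered plants. The test of the difference between these rhythms is the same test as that of the night-minus-day change, with its 10 calls.

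Gene lists of pathways were read against these backgrounds: 31 lists held 528 genes, with 155 named among the array's probe sets and 131 of these tested, and the lists are described by counts and medians beside the median over all probe sets, which was -0.02 for the difference. Of the 131, only AT1G47400 was called for the difference. Called probe sets without a gene name could not be placed in a list, so a list may have further calls. The lists were chosen with earlier results of these data known, so the order of their medians is a description. Counts of called members are to be read beside the shares of all probe sets tested. At night 6.52% rose and 6.43% fell, and by day 0.00839% rose and 0.151% fell. Among list members and the 4 named genes above, 45 night calls were followed with each array left out: 31 stayed called in all 24 settings and 14 lost the call in 1 or more, which is given below as the number of the 24 settings in which it was lost.

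Iron and nitrogen genes had the most negative list medians for the difference (-1.42 and -0.95), from 2 and 3 tested genes. The iron median rests in part on AT1G47400, already called above. Of 21 genes in the iron-deficiency list, 5 were named and 2 tested, and both fell at night. Besides AT1G47400 this was PYE, the bHLH transcription factor POPEYE that regulates iron homeostasis genes. At midnight PYE had log2 levels of 5.08, 5.98 and 4.49 in water-limited arrays, against 6.35, 6.31 and 6.19 in well-watered arrays, and at pre-dawn 6.37, 6.64 and 6.42, against 7.25, 7.06 and 6.86. The regimes overlapped at midday and late day. Its night change was -0.84 and its day change -0.10, and the difference of -0.74 did not pass (limma adjusted p 0.246).

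In the nitrogen list 3 of 27 genes were tested, of which 2 fell and 1 rose at night. AT1G68670 and AT1G25550 encode HHO2 and HHO3, GARP transcription factors induced by nitrate. AT1G25550 had 4.31, 5.79 and 3.77 log2 at pre-dawn in water-limited arrays, against 7.09, 6.48 and 7.16 in well-watered arrays. Its night change was -1.86 and its day change -0.70, and the difference was -1.15 (SE 0.40, limma adjusted p 0.248). AT1G68670 had a night change of -1.22, a day change of -0.26 and a difference of -0.95 (limma adjusted p 0.191). In both genes water-limited pre-dawn replicate 2 was the highest of its group, and without it both differences passed, at -1.44 (adjusted p 0.0232) and -1.17 (adjusted p 0.0101). Leaving out the highest array of a group lowers its mean, so these passes are not separate support for the difference. ASPGB1, an asparaginase, rose at night (0.86) with a difference of 0.62 (adjusted p 0.306).

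Anthocyanin and flavonol genes had the largest positive list median, at 1.59 for the difference. Of 17 genes listed, 6 were named and tested; all 6 rose at night, none passed by day, and none passed for the difference with all 24 arrays. By time, the list's median change was 0.57 (midday), 0.23 (late day), 0.96 (midnight) and 2.99 (pre-dawn). DFR, dihydroflavonol reductase at the branch towards anthocyanins, had log2 levels of 11.76, 9.88 and 11.46 at pre-dawn in water-limited arrays, against 8.32, 8.09 and 7.77 in well-watered arrays, 7.86-fold higher. At late day the levels of DFR were 7.93, 8.33 and 8.08, against 7.30, 8.80 and 8.50, and the regimes overlapped there as at midday and midnight. Its difference was 1.96 (SE 0.50, 95% interval 0.91 to 3.01, limma adjusted p 0.132).

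Genes that decorate the anthocyanin molecule gave similar values. AT5MAT, an anthocyanin malonyltransferase, had 7.76, 6.03 and 7.50 log2 at pre-dawn in water-limited arrays, against 3.57, 3.61 and 3.11 in well-watered arrays, and a difference of 1.94 (SE 0.45, limma adjusted p 0.101). UGT78D2, a flavonoid 3-O-glucosyltransferase, had 9.65, 8.16 and 9.73 at pre-dawn, against 6.72, 7.40 and 7.07, and a difference of 1.37 (SE 0.33, limma adjusted p 0.115). UF3GT and AT4G14090, sugar transferases that act on anthocyanins, each had a difference of 1.59 (adjusted p 0.212 and 0.302). UGT78D1, a flavonol rhamnosyltransferase, had a night change of 0.68 (call lost in 4 settings), a day change of 0.48 and a difference of 0.20. At pre-dawn all 6 genes were separated between regimes, but the share of all probe sets so separated was not counted. In each of the 6 genes water-limited pre-dawn replicate 2 was the lowest of its group. Averaged over the 6 genes, pre-dawn levels were 10.03, 8.56 and 10.02 log2 under water limitation, against 6.96, 7.06 and 6.77 in well-watered plants. Without that replicate 2, the differences of DFR (2.25), AT5MAT (2.21), UF3GT (1.86) and UGT78D2 (1.62) passed the test. These were 4 of the 6, where 0.897% of all probe sets passed as higher. Leaving out the lowest array of a group raises its mean, so these passes are not separate support for the difference. With array quality weights, 5 of the 6 passed, beside 7.64% of all probe sets for the difference and 29% for the night change. These weights counted the same array at 0.49, beside 1.87 and 1.99 for replicates 1 and 3 of its group.

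**Figure D4:**
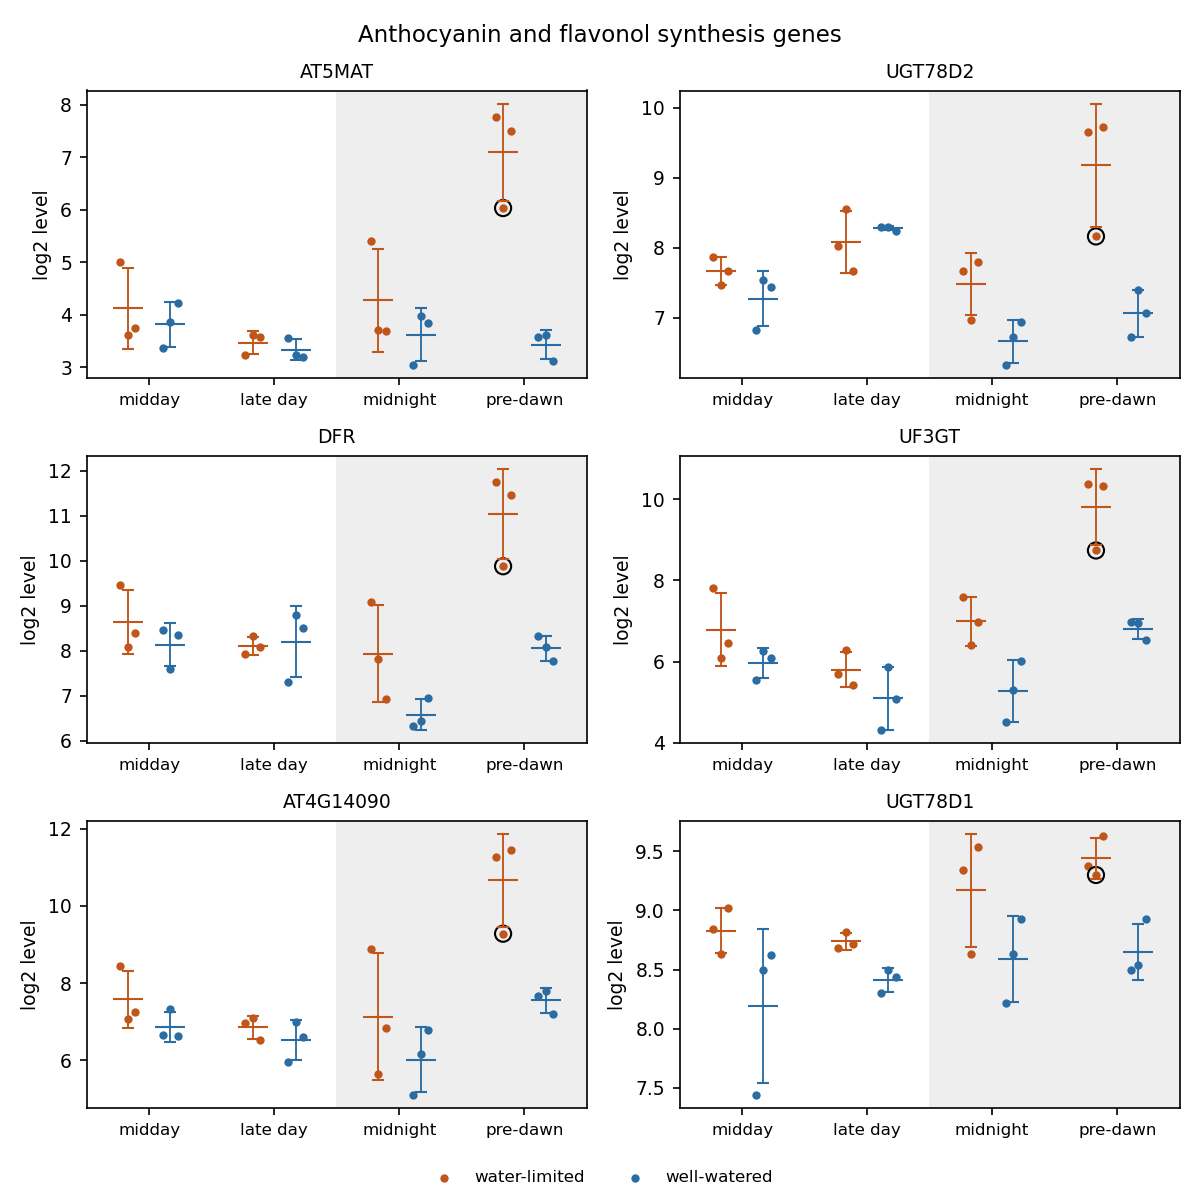
Log2 level of the 6 tested genes of anthocyanin and flavonol synthesis by time of day, with water-limited arrays left of well-watered ones and night shaded. Points are arrays, 3 per regime and time, bars are the mean and SD, and the ring marks water-limited pre-dawn replicate 2, the lowest of its group in each panel.

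CC-type glutaredoxins, small thiol oxidoreductases of a plant family, moved both ways. Of 21 listed, 10 were tested; 4 rose and 2 fell at night, none passed by day or for the difference, and the median difference was 0.57. AT3G62960 had the largest night change (2.59), with 8.43, 5.43 and 8.55 log2 at pre-dawn in water-limited arrays, against 3.93, 5.17 and 4.22 in well-watered arrays, so that water-limited replicate 2 lay near the well-watered arrays. AT4G33040 (night change 2.16), AT5G11930 (1.68) and AT2G47880 (1.33) also rose at night. AT5G18600 (-0.99) and AT3G62950 (-0.96, call lost in 5 settings) fell. The smallest p for the difference belonged to AT5G18600 (-0.87, limma adjusted p 0.166), AT2G30540 (1.16, 0.176) and AT5G11930 (1.04, 0.273).

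Among 8 tested sugar transporters, 3 rose and 1 fell at night and the median difference was 0.15. SWEET13, which exports sucrose from cells towards the phloem, had 9.42, 9.01 and 9.16 log2 at midnight in water-limited arrays, against 5.94, 7.66 and 8.30 in well-watered arrays. Its night change was 2.21 and its day change 0.94, and the difference of 1.27 did not pass (SE 0.63, limma adjusted p 0.401). SWEET1 (0.58) and TMT2 (0.48) also rose, and SWEET2, a vacuolar sugar transporter, fell at night (-0.95). The call of TMT2 was lost in 12 settings and that of SWEET2 in 4. In the list of sugar-repressed and starvation genes all 3 tested members fell at night and 2 of them fell by day, with a median night change of -1.01, a median day change of -0.93 and a median difference of -0.08. The day calls were lost in 10 settings for AT3G15450 and in 4 for AT2G20670, and the night call of AT2G20670 in 6. AT3G15450 fell by 1.01 log2 at night (-1.01) and by 0.93 by day (-0.93), with a 95% interval of -0.61 to 0.45 for the difference of -0.08. Its water-limited arrays lay below the well-watered ones at all 4 times, with 10.12, 10.39 and 9.99 log2 at late day in water-limited arrays, against 11.22, 11.26 and 11.53 in well-watered arrays. AT2G20670 had the larger fall by day (day change -2.01, night change -1.28), with 5.0, 5.68 and 4.97 log2 at late day in water-limited arrays, against 8.23, 7.96 and 9.19 in well-watered arrays. Its difference of 0.73 did not pass (limma adjusted p 0.550), and its pre-dawn levels, between 2.2 and 2.96, lay close to the table's lowest value of 2.1961.

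No tested gene of the abscisic acid and dehydration, clock or stress factor lists passed the test of the difference with arrays weighted equally. Few were tested: 4 of 25 abscisic acid and dehydration genes, 4 of 28 clock genes and 3 of 14 cold and stress transcription factors. With array quality weights, 1 gene in each of these lists passed as higher, beside 7.64% of all probe sets passing in either direction. The 4 tested genes of the abscisic acid and dehydration list, the cold-regulated COR47, COR15A and COR15B and the dehydrin LTI30 (named to complete the list), passed neither at night nor by day, and their differences were 0.72, 1.08, 0.50 and -0.02. All 4 tested clock genes had a positive difference (median 0.47); RVE6 (AT5G52660), a MYB-like clock factor, rose at night (0.62) with a difference of 0.50. STZ, a zinc-finger repressor induced by stress, had a night change of 0.82 and a day change of -0.53, neither past the threshold, and a difference of 1.35 (SE 0.52, limma adjusted p 0.283). Receptors and phosphatases of abscisic acid, aquaporins, ferritins and jasmonate and salicylate genes had no tested member that the annotation names, so these pathways are not described.

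Of 6 tested cell wall genes, 2 fell at night and none rose, with a median night change of 0.06 and a median difference of -0.15. EXPA8, an expansin that loosens cell walls, fell at night (-1.04) and had a day change of 0.01; its difference was -1.06 (SE 0.30, limma adjusted p 0.170), and -1.32 without water-limited pre-dawn replicate 2 (adjusted p 0.00205). At pre-dawn it had 7.07, 8.71 and 7.19 log2 in water-limited arrays, against 9.22, 8.77 and 9.21 in well-watered arrays. The other cell wall gene that fell was ATPMEPCRB (-0.67, call lost in 6 settings). Of 4 cytokinin genes, 1 rose and 1 fell at night, with a median difference of 0.13. UGT76C2, which inactivates cytokinins by glucosylation, fell (-1.17) with a difference of -0.61 (adjusted p 0.325), and RR16, a response regulator, rose (0.67, call lost in 7 settings) with a difference of 0.40. Of 4 auxin genes, 1 rose at night, with a median difference of -0.01: WES1, a GH3 enzyme that conjugates auxin, had a night change of 0.74 (call lost in 7 settings) and a difference of 0.98 (adjusted p 0.212). Of 10 autophagy genes, 5 rose at night, where 6.52% of all probe sets rose, and none rose by day. A positive difference was found for 9 of the 10, with a median of 0.25, where 46.1% of all probe sets were positive. The night calls of ATG8D (11 settings), ATG8C (8), ATG3 (7) and ATG8G (6) were lost without some arrays, and that of APG8H in none of the 24. AT2G25625, the chloroplast vesiculation gene CV of senescence, rose at night by 1.88 and had a day change of 0.88.

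Chlorophyll and photosynthesis genes gave no call for the difference. Of 4 tested genes of chlorophyll and haem synthesis, PORB, CHLM and HEMB1 fell at night (-0.65, -0.46 and -0.46) and none passed by day. The call of HEMB1 was lost in 7 settings. The 8 nuclear photosynthesis genes had a median difference of -0.08, and 1 of them, LHCB4.3, rose at night (0.58), with a day change of 0.51. None of the 42 tested plastid-encoded photosynthesis genes passed at night, by day or for the difference. Their median change of -0.99 at late day rested on water-limited replicate 2, in which their mean level was 9.20 log2, beside 11.49 and 10.91 in replicates 1 and 3, against 11.88, 11.41 and 11.31 in well-watered plants. Without that array the late-day median was -0.17, and the list's median difference of 0.12 became -0.11.

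**Figure D5:**
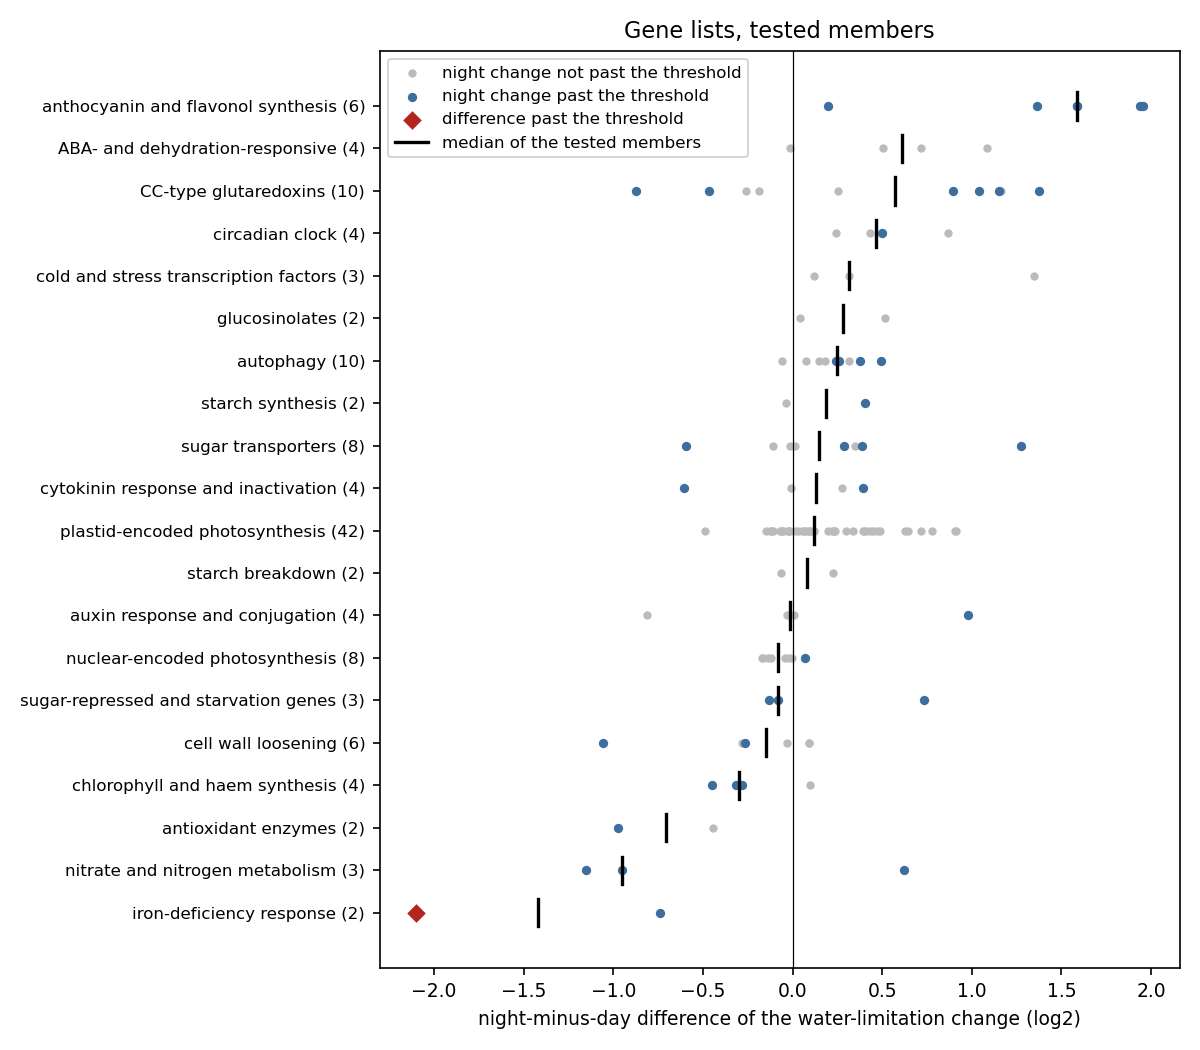
Night-minus-day difference of the water-limitation change (log2, horizontal axis) of each tested gene in the 20 lists with at least 2 tested members, whose number stands in brackets. Black bars are list medians, blue points are genes whose night change passed the test, and the red diamond is AT1G47400. It is the only list member named in the annotation that was called for the difference. Probe sets without a gene name could not be placed in a list and are not shown. Anthocyanin genes lie furthest right by median and iron-deficiency genes furthest left.

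Of the 210 probe sets called for the difference without water-limited pre-dawn replicate 2, 98 were assigned to 1 gene, 40 higher and 58 lower, and those given here were chosen after their values were seen. CHIL, a chalcone isomerase-like protein of flavonoid synthesis, had a difference of 1.5 (SE 0.20, limma adjusted p 0.00127), from a night change of 1.89 and a day change of 0.39. The CC-type glutaredoxins AT3G62960 (1.89) and AT5G11930 (1.35) were among the higher calls and AT5G18600 (-1.02) among the lower ones. IAGLU, which attaches glucose to auxin, was higher (1.27), with a night change of 1.15 and a day change of -0.11. Among the lower calls were MDH (AT3G47520), a plastid malate dehydrogenase, at -0.59, and UGT76C2 at -0.80. With all 24 arrays none of these passed, at adjusted p values of 0.162 for CHIL, 0.352 for AT3G62960, 0.273 for AT5G11930, 0.166 for AT5G18600, 0.212 for IAGLU, 0.212 for MDH and 0.325 for UGT76C2.

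Other cell types and RNA quality were read beside these results. Of 7 root markers 1 was tested, PYK10, a beta-glucosidase of root and hypocotyl, with a night change of -0.52 and a day change of -0.90, neither past the threshold. The day times of PYK10 were unlike, at 0.19 at midday and -1.99 at late day (-2.03 without water-limited late-day replicate 2). Of 6 guard cell markers 2 were tested, and the difference was 0.62 for FAMA (adjusted p 0.293) and 0.04 for GC1. No flower marker was tested. The 3-prime minus 5-prime log2 signal of control probe sets, which rises as RNA degrades, changed with water limitation by 0.116 more at night than by day for GAPDH, by -0.103 for actin and by -0.015 for ubiquitin. With these 3 values as covariates, the difference passed for 8 probe sets. AT1G47400 (-2.02) and AT5G05250 (-1.27) stayed called, at an adjusted p of 0.0289 each. The calls of AT3G17770 (-0.67, adjusted p 0.0779), AT5G23250 (-0.88, 0.0771), 250073_at (0.62, 0.0771) and 248377_at (0.88, 0.0516) were lost. The part of other cell types in the named genes was not tested.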

How the data were processed

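The authors deposited log2 values of 22810 probe sets for 24 Affymetrix arrays, computed with GCRMA per the submitters' processing notes, with no version stated in the sources used; per the labels' protocols, Trizol extraction preceded biotin labelling. The lowest value was 2.1961, and 25.5% of values lay within 0.001 of it. No further normalization was applied. The 64 control probe sets were set aside. Gene names came from the platform annotation, updated by gene ID: 13513 probe sets had 1 gene, 503 several and 8730 none.

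A single model of 8 group means over all 24 arrays was fitted with limma 3.58.1 (R 4.3.3; lmFit, eBayes, two-sided, prior df 4.57, residual df 16), adjusted by Benjamini-Hochberg over 11926 probe sets. The script was tested on simulated data. Night and day share the normalization and the estimate of the spread. The p-values measure the spread between these arrays. Genes named were the called ones assigned to 1 gene (up to 12 in each direction), list members called, and up to 3 uncalled members per list with the smallest p. Members, lists and tests were chosen with earlier results of these data known. Equal replicate numbers did not pair samples: none of 12 equal-numbered pairs had residuals correlated above 0.1 (median -0.156). Among 24 unequal-numbered pairs at the same time, 10 were above 0.1 (median 0.072, highest 0.531). The source of these correlations was not tested. Alternatives covered filters, normalization, weights, blocks, single times and each array left out.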

Additional observations from a re-analysis of the deposited data

Results flagged for a closer look

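The difference between the night and the day change passed limma's test in 10 probe sets, and these are given for that reason. The difference was -1.32 for AT5G05250, -1.39 for probe set 248270_at, -2.10 for AT1G47400, 0.99 for 248377_at, -1.59 for 264751_at, -1.29 for 256299_at, 1.73 for 251109_at, 0.64 for 250073_at, -0.71 for AT3G17770 and -0.86 for AT5G23250. Of these, AT5G05250, AT5G23250 and 256299_at had a night change below 0 beside a day change above 0 (-1.0 and 0.32, -0.48 and 0.38, -1.06 and 0.23), and none of the 10 day changes passed the test.

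Within the day, late day and midday differed for 1 probe set, assigned to AT5G05140: its change was -0.51 at late day and 0.97 at midday, and the late-day minus midday difference was -1.48 (SE 0.23, limma adjusted p 0.0213). With each array left out in turn, between 0 and 3 probe sets passed this test.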

How the results depend on the processing

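Against 10 calls with all 24 arrays, the night-minus-day difference passed for 18 probe sets at a mean of at least 6 log2, 911 with array quality weights, 4 among probe sets assigned to 1 gene, 4 with midnight alone as the night, 32 with pre-dawn alone, 0 with midday alone as the day and 307 without replicate 2 of water-limited late day and pre-dawn, and for 3 to 210 without 1 array. Centring arrays on their medians gave 14 calls (8 higher and 6 lower) and quantile normalization 13 (5 and 8), against 3 higher and 7 lower. The night change passed for 3456 with array weights, 727 among 1-gene probe sets, 2682 without both arrays and 692 to 2248 without 1 array, against 1544. The day change passed for 57 with array weights, 0 among 1-gene probe sets, 10 with 1 weight per group and 5 to 25 without 1 array, against 19. Pre-dawn minus midnight passed for 13 with no filter, 34 with array weights, 47 without both arrays and 0 to 44 without 1 array, against 0. Late day minus midday passed for 7 with no filter, 0 at a mean of at least 6 log2, 0 with trend and robust moderation, 6 with array weights, 0 with 1 weight per group, 4 without both arrays and 0 to 3 without 1 array, against 1. With a replicate block for each equal-numbered pair, which the check of the numbers did not bear out, the counts were 3 for the difference, 672 at night, 4 by day and 0 for late day minus midday; with the replicate number itself as a block, 9 passed for the difference and 2 for late day minus midday. The weight per group and the removal of both arrays were chosen after seeing the data. The causes of these shifts were not tested. By design, the 1-gene setting used fewer probe sets and the left-out-array settings fewer arrays. Single-time settings kept the fit to all 24 arrays and compared fewer groups. Sizes moved too: over the alternatives run, the difference ranged between -2.87 and -1.33 for AT1G47400 and between 0.43 and 3.45 for AT5MAT. Among the named genes, 1 value turned its sign: the difference of ASPGB1, 0.62, was -0.16 with pre-dawn alone as the night. Signal near the table's lowest value has only a bound, which touches AT2G20670 at pre-dawn.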
